A study of Mus musculus with 2 samples.

Results

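L cells are the enteroendocrine cells that make proglucagon, the product of Gcg, and peptide YY, the product of Pyy. The L cells described here were chosen by those transcripts. A barcode counted as an L cell when it held at least 500 genes and 1000 unique molecular identifiers (UMIs, each marking 1 captured transcript), at most 25% mitochondrial UMIs and fewer than 3 UMIs of the progenitor factor Neurog3, when Gcg or Pyy had the most UMIs among Gip, Gcg, Pyy, Cck, Sst, Ghrl and Nts, and when that hormone made at least 1% of all its UMIs. The rule found 321 L cells among 8761 barcodes that passed the quality limits and 12591 deposited barcodes. Gcg led in 210 of them and Pyy in 111. The same rule gave 1630 cells led by one of the other 5 hormones, which serve as the comparison throughout. These are 710 cells led by Gip, 335 by Cck, 245 by Nts, 192 by Ghrl and 148 by Sst.

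The cells came from 2 scRNA-Seq libraries of Tomato-positive epithelial cells, sorted by flow cytometry from whole small intestines after the attached pancreas had been dissected away. All mice carried the Neurog3Cre transgene and the Rosa26tdtomato reporter, so red cells descend from cells in which the Neurog3 promoter of endocrine progenitors was active. The WT library came from Neurog3Cre; Rosa26tdtomato mice and gave 148 L cells, and the NFKO library came from Neurog3Cre-FoxO1 f/f; Rosa26tdtomato mice, in which the Cre should remove FoxO1, and gave 173. Each library pooled 4 to 5 mice aged 4 to 6 weeks, and each genotype had 1 library. No comparison of the genotypes therefore has a replicate check or a p-value. Intervals below are 95% intervals that cover counting error only, and they do not cover differences between mice, pools or sorts.

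L cells sense food and secrete their hormones into the blood. Gcg encodes a precursor from which the gut cuts glucagon-like peptides, which raise insulin secretion and support the mucosa, while peptide YY slows the gut and reduces appetite. Insl5 encodes an insulin-like peptide known from L cells of the distal bowel, Ffar1 a receptor for long-chain fatty acids, and Etv1 a transcription factor of enteroendocrine cells. Enteroendocrine cells commonly carry transcripts of several hormones at once, in mixtures that depend on their position along the gut and their age along the villus.

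The results below turn on 3 hormone genes: Gcg and Pyy, which chose the cells, and secretin (Sct), a hormone that releases pancreatic bicarbonate, whose transcript was abundant and differed more than 10-fold between Pyy-led and Gcg-led cells. Their 250 bases upstream of the RefSeq start of transcription are shown because they are the nearest regulatory sequence of the genes whose levels define the subgroups. All were read from RefSeq on GRCm38.p6, on the minus strand, 5′ to 3′, with the letters TAAT or its reverse complement ATTA, the core of many homeodomain sites, in capitals. Gcg lies on chromosome 2 from 62474530 to 62483650, Pyy on chromosome 11 from 102106676 to 102107832 and Sct on chromosome 7 from 141278330 to 141279133 (GENCODE, GRCm38).
Gcg, chr2:62483654-62483903: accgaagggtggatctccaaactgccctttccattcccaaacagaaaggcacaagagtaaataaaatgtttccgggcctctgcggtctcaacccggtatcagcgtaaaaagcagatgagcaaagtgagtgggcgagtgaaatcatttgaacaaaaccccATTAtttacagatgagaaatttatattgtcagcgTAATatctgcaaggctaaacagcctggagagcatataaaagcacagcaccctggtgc
Pyy, chr11:102107833-102108082: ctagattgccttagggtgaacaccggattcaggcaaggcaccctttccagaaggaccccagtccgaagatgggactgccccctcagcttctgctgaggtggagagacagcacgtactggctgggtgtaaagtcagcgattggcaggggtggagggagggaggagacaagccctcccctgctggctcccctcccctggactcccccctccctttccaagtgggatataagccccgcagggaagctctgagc
Sct, chr7:141279134-141279383: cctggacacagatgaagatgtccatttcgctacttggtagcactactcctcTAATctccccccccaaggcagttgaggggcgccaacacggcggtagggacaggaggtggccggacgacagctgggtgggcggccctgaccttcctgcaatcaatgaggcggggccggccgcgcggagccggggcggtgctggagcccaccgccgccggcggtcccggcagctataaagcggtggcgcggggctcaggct
The Gcg window held 2 such matches, the Sct window 1 and the Pyy window 0. Of 27025 promoter windows of this length, 55.3% held at least 1, so a match is common and describes letters only.

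Several features of the libraries bear on every comparison of the genotypes. The L cells held 2487559 UMIs in WT and 3088863 in NFKO, with medians of 13932 and 17252 per cell, and 12 NFKO cells but 0 WT cells held fewer than 2000. The libraries shared 6 barcodes, of which 0 were L cells. In WT, 130 of the L cells had transcripts of Y-linked genes without Xist and 0 had Xist without them, whereas in NFKO 7 were typed as male and 141 as female, so sex and genotype cannot be told apart. Foxo1 gave 64 UMIs in WT L cells (25.7 CPM, UMIs of the gene per 1000000 UMIs) and 60 in NFKO L cells (19.4 CPM), a ratio of 0.755 (0.522 to 1.09), which was 0.998 in Gcg-led and 0.494 in Pyy-led cells and 0.661 in the other hormone-led cells. The 3′ count in L cells therefore did not bear out the label, although it may also count transcripts with an internal deletion. The authors reported reduced FoxO1 expression in sorted Tomato-positive cells of NFKO mice, with FoxO3 and FoxO4 unchanged. With Gcg-led and Pyy-led cells given equal weight, the L cell ratios here were 0.763 for Foxo1, 0.654 for Foxo3 and 0.748 for Foxo4. The library labelled NFKO is called NFKO below for that label only.

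Some L cell barcodes were in doubt on 3 counts. There were 4 sets of 3, 2, 7 and 4 NFKO barcodes whose counts differed by no more than sampling noise (chi-square per degree of freedom under 1.5 in 26 of 12684 pairs, against 0 of 10701 pairs in WT), 15 of these 16 barcodes were led by Pyy, and their leading hormone made 1.10% to 2.31% of UMIs. Goblet, Paneth and enterocyte markers together passed 5% of UMIs in 3 WT and 24 NFKO L cells. One NFKO cell led by Gcg held 117 of the 120 UMIs of Pcsk2 and 14 of the 14 of Gc in all NFKO L cells, genes of pancreatic alpha cells, with 25.8% of its own UMIs from Gcg and 0 UMIs of the intestinal genes Cdx2, Vil1 and Cdh17. Counting each repeated set once and leaving out the other doubtful cells left 145 L cells in each library, and values without them are given for some results.

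L cells made up 4.73% of the kept WT barcodes (4.01% to 5.53%) and 3.07% of the kept NFKO barcodes (2.64% to 3.56%), a ratio of 0.649 (0.518 to 0.814). Cells led by Gcg were 115 of 3129 WT barcodes (3.68%) and 95 of 5632 NFKO barcodes (1.69%), a ratio of 0.459 (0.346 to 0.608). Cells led by Pyy were 33 (1.05%) and 78 (1.38%), a ratio of 1.31 with an interval from 0.864 to 2.04. Pyy thus led in 22.3% of the WT L cells (15.9% to 29.9%) and in 45.1% of the NFKO L cells (37.5% to 52.8%). Without the cells in doubt L cells made up 4.63% of kept WT and 2.58% of kept NFKO barcodes, and Pyy led in 22.8% and 37.9% of them. These shares describe the outcome of the rule in 1 sort of each genotype, and a share also moves with the number of other Tomato-positive cells. Among the 7 NFKO L cells typed as male, 5 were led by Pyy, against 28 of the 130 in WT, and among the 141 typed as female 37.6% were. Over male-typed barcodes alone the ratio of L cell shares was 0.374.

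The hormone that chose a cell was far above the threshold in most cells. The lowest leading hormone inside the rule made 1.19% of UMIs in WT and 1.10% in NFKO, and the highest outside it 0.926% and 0.899%. In Gcg-led cells Gcg ran from 1.24% through a median of 7.79% to 20.1% of UMIs in WT, and from 1.11% through 8.16% to 25.8% in NFKO, the last being the cell with alpha cell markers. In Pyy-led cells Pyy ran from 1.19% through 6.57% to 18.4% in WT and from 1.10% through 5.64% to 19.4% in NFKO. Split by leader, the libraries thus overlapped over almost their whole range of the leading hormone. Pooled over all L cells, Gcg made 60104 CPM in WT and 44322 in NFKO (ratio 0.737), and Pyy 23399 and 40695 (ratio 1.74). Among Gcg-led cells alone the Gcg ratio was 1.16, the opposite direction, and among Pyy-led cells alone the Pyy ratio was 0.919. Both hormones chose the cells, so these levels are a description.

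**Figure D1:**
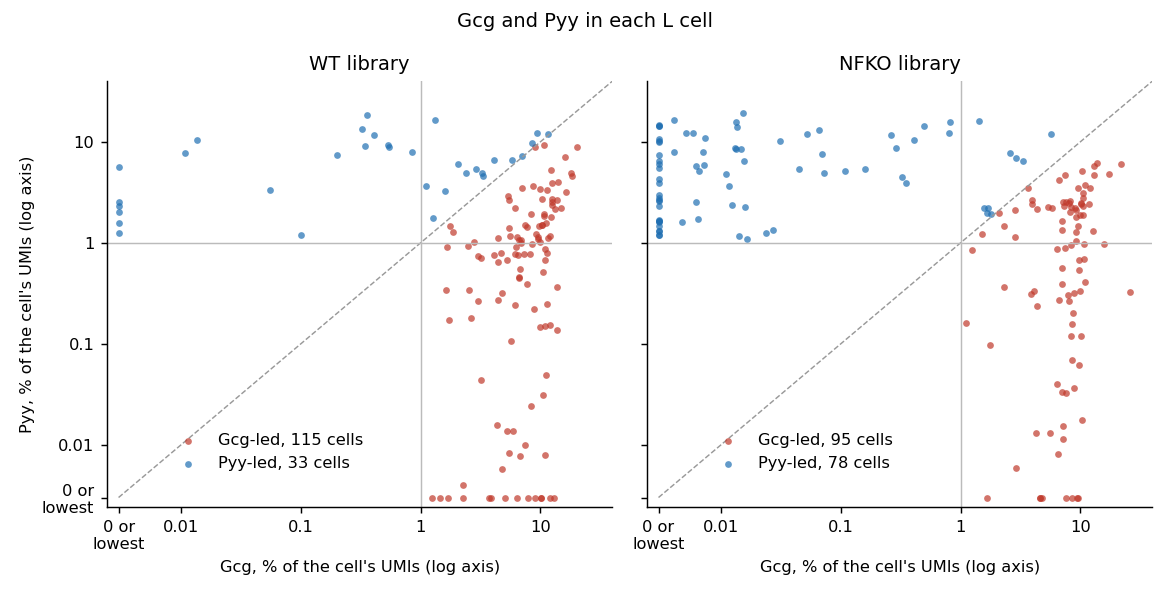
Percent of each L cell's UMIs from Gcg (x axis) and Pyy (y axis), both on log axes, in the WT library (left, 115 Gcg-led and 33 Pyy-led cells) and the NFKO library (right, 95 and 78). Values under 0.003% are drawn at the axis, gray lines mark 1% and the dashed line equal levels; the NFKO panel holds a column of Pyy-led cells with no or almost no Gcg.

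Many L cells held both hormones of the rule. Gcg and Pyy both made at least 1% of UMIs in 43.2% of the WT L cells and 31.8% of the NFKO L cells. Pyy made at least 90% of the summed Gcg and Pyy UMIs in 12.8% of the WT and 40.5% of the NFKO cells, and less than 10% in 36.5% and 25.4%. Cells between these extremes made up the rest. Within Pyy-led cells the median Gcg level was 0.547% of UMIs in WT and 0.0113% in NFKO. The share of Pyy-led cells with Gcg at 1% or more was 45.5% in WT (28.1% to 63.6%) and 11.5% in NFKO (5.41% to 20.8%), and 45.5% and 9.09% without the cells in doubt. Non-endocrine barcodes, defined as kept barcodes with no leading hormone and no UMI of Chga, Chgb, Tph1 or Neurog3, held 16.6 CPM of Gcg in WT and 22.3 in NFKO, and 8.04 and 19.1 CPM of Pyy, far under the 1% level.

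The further hormones of an L cell differed with its leader. Cck, the hormone of gallbladder contraction and pancreatic enzyme release, reached 1% of UMIs in 77.4% of Gcg-led WT cells and 80.0% of Gcg-led NFKO cells, and in 57.6% and 30.8% of the Pyy-led cells. Ghrelin (Ghrl), a hunger hormone, did so in 28.7% and 17.9% of Gcg-led cells and in 6.06% and 10.3% of Pyy-led cells. Neurotensin (Nts), a peptide of distal enteroendocrine cells, went the other way, with 1.74% and 6.32% of Gcg-led cells against 15.2% and 55.1% of Pyy-led cells. Gip reached 1% in 9.09% and 11.5% of Pyy-led cells, and Sst in 0 of 148 WT and 0 of 173 NFKO L cells (upper limits 2.46% and 2.11%). These 5 hormones took part in the rule, which capped them below the leader.

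Counting the 7 hormones together, 20 WT L cells carried 1 of them at 1% or more, 55 carried 2, 56 carried 3 and 17 carried 4. In NFKO the numbers were 24, 79, 51 and 17, and 2 cells carried 5. The commonest mixtures in WT were Gcg with Pyy and Cck (35 cells) and Gcg with Cck (33 cells). In NFKO they were Gcg with Cck (28 cells), Gcg with Pyy and Cck (25 cells) and Pyy with Nts (25 cells). The last mixture was found in 2 WT cells. A repeated set of 7 NFKO barcodes was all led by Pyy, and these mixtures were not recounted without the cells in doubt.

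**Figure D2:**
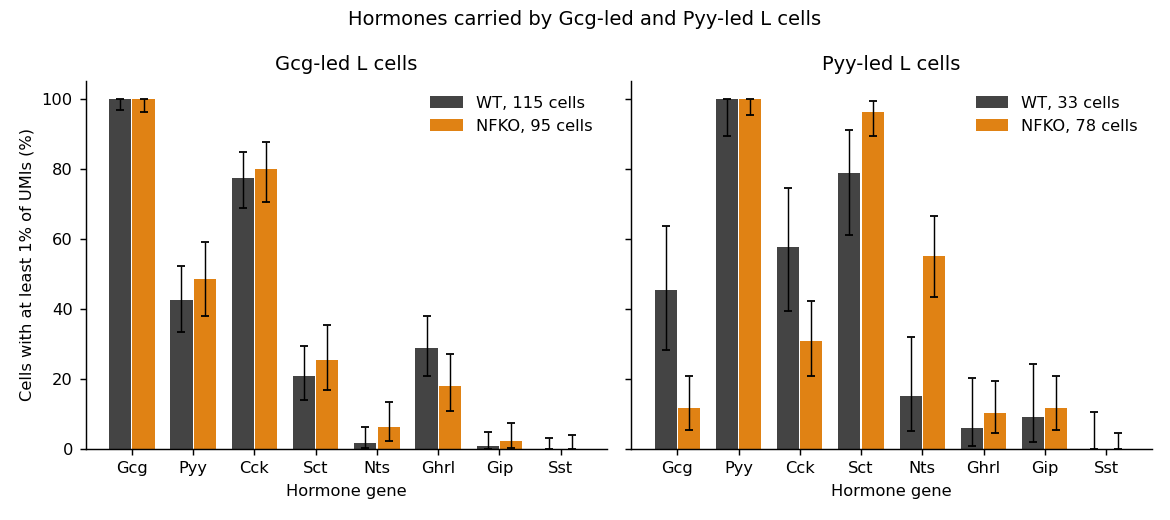
Share of Gcg-led (left) and Pyy-led (right) L cells in which each hormone made at least 1% of UMIs, with WT in gray and NFKO in orange and exact 95% binomial intervals as bars. Cck accompanied Gcg in 77.4% and 80.0% of cells, and Sct accompanied Pyy in 78.8% and 96.2%.

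Secretin took no part in the rule and separated the leaders by more than 10-fold. Sct made a median of 0.426% of UMIs in Gcg-led WT cells (0.0413% to 3.77%) and 4.59% in Pyy-led WT cells (0.0912% to 15.99%). The medians in NFKO were 0.649% (0.0102% to 6.59%) and 7.91% (0.776% to 29.1%). The ranges overlapped in both libraries, while the upper quartile of Gcg-led cells (0.859% and 1.00%) lay below the lower quartile of Pyy-led cells (1.90% and 3.45%). The pooled Sct level was 12.9-fold higher in Pyy-led than in Gcg-led cells in WT and 10.3-fold higher in NFKO. It reached 1% of UMIs in 20.9% and 25.3% of Gcg-led cells and in 78.8% and 96.2% of Pyy-led cells.

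Of the other markers of L cells, Etv1, Ffar1 and Insl5 took no part in the rule and were compared with the 1630 cells led by other hormones. Etv1 stood at 801 CPM in WT L cells and 673 CPM in NFKO L cells, against 367 and 241 CPM in the other hormone-led cells, ratios of 2.18 and 2.79. With each cell thinned to 2000 UMIs, which left out the 12 shallower NFKO L cells, Etv1 was seen in 77.0% of WT and 68.3% of NFKO L cells (98.0% and 86.1% before thinning), in 39.1% and 28.1% of the other hormone-led cells and in 0.498% and 0.159% of the non-endocrine barcodes. Its order was L, Nts-led (702 CPM), Cck-led (594), Ghrl-led (349), Gip-led (183) and Sst-led cells (23.0) in WT, and in NFKO Cck-led cells (524 CPM) came before Nts-led cells (326). Ffar1 stood at 437 and 446 CPM in L cells, 1.60-fold and 2.12-fold above the other hormone-led cells together. Like Etv1, it was shared, since Nts-led and Cck-led cells held 484 and 447 CPM in WT and 422 and 335 CPM in NFKO.

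Insl5 was confined to a few cells. It had a UMI in 17 of 148 WT L cells (11.5%) and 28 of 173 NFKO L cells (16.2%), against 9 of 489 and 33 of 1141 cells led by other hormones. The pooled levels were 36.2 and 149 CPM, 14.2-fold and 31.4-fold above the other hormone-led cells. The 3 highest NFKO cells held 131, 118 and 106 of the 459 UMIs there. In the non-endocrine barcodes Insl5 had 0 UMIs in 1023 WT cells and 3 in 737 NFKO cells. Etv1 and Ffar1 thus marked most L cells but were shared with Nts-led and Cck-led cells, and Insl5 was found in a minority.

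Genes higher in L cells than in other hormone-led cells were few. Of 11176 genes tested, 69 (0.617%) had a ratio of 2 or more, with an interval that left out 1 in both libraries, and 232 (2.08%) were as much lower. Median ratios over all genes were near 1 (log2 of -0.01 in WT and 0.03 in NFKO). Fap, a cell-surface prolyl peptidase, stood at 109 CPM in WT L cells and 63.5 in NFKO, against 11.8 and 4.78 in the others, ratios of 9.19 and 13.3. Naaladl1, a brush-border peptidase, stood at 169 and 158 CPM against 39.7 and 27.3, ratios of 4.25 and 5.79, although Nts-led WT cells held 177 CPM. Slc15a1, the intestinal transporter of di- and tripeptides, was 3.25-fold and 2.94-fold higher.

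Of 10 nutrient receptors tested, 2 were higher than in the other hormone-led cells in both libraries and 3 lower, against 0.617% and 2.08% of all genes. Gpr119, a receptor for lipid amides, was higher (103 and 106 CPM, ratios 2.74 and 2.69), as was the bile acid receptor Gpbar1 (19.3 and 42.1 CPM, ratios 2.65 and 3.51). Cnr1, Casr and Gper1 were lower. Ffar2, a receptor for short-chain fatty acids, had ratios of 0.810 and 1.01, and Ffar4, a long-chain fatty acid receptor, 0.666 and 0.896. Of 15 prohormone processing genes and granins, 0 passed the 2-fold limit in both libraries in either direction.

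Hox genes of posterior position were also higher. Hoxb8 had ratios of 8.92 and 10.4 and Hoxb9 of 10.4 and 6.92, and 3 of the 7 tested genes of distal gut identity were higher while 0 were lower. Nts-led NFKO cells held 23.7 CPM of Hoxb8 and 46.2 of Hoxb9, against 62.2 and 71.9 in NFKO L cells. Summed over the 14 genes of the distal list, Nts-led cells held 1083 CPM in WT and 216 in NFKO, and L cells 290 and 586. Single cells weighed on these sums, since 1 Nts-led WT cell held 501 of the 548 UMIs of the distal gene Fabp6 in that class. In NFKO L cells 1 cell held 786 of the 809 UMIs of Fabp6. Hoxb9 was seen in 15 WT and 23 NFKO L cells. Hoxb8 was seen in 80.0% and 78.3% of those cells, against 3.01% and 7.33% of the remaining L cells, whereas Gata4, a factor of the proximal intestine, was seen in 1 of 15 and 2 of 23 of them against 46 of 133 and 45 of 150 of the rest. Insl5 was seen in 33.3% and 34.8% of the Hoxb9-positive cells against 9.02% and 13.3% of the rest. Median depth was 13683 and 19663 UMIs in the Hoxb9-positive cells and 13938 and 16859 in the rest. These shares count cells with a UMI, and cells without one may still express the gene.

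Of 28 transcription factors tested, 1 was higher and 4 lower in both libraries, against 0.617% and 2.08% of all genes. Etv1 was higher, and Hhex, Pdx1, Rfx6 and Sox4 were lower. The pan-endocrine factors Neurod1 (1.15 and 1.503) and Pax6 (0.994 and 1.08) stayed within the 2-fold limit. The remaining named genes included Vim (2.90 and 5.98), an intermediate filament gene, the sodium-activated potassium channel gene Kcnt1 (2.77 and 3.86), the transcriptional coactivator Cited1 (3.34 and 3.13), Gchfr (3.09 and 3.52), which regulates tetrahydrobiopterin synthesis, and the collagen gene Col8a1 (2.02 and 4.57), which was higher still in Nts-led cells. Drd4, a dopamine receptor gene, had 4.11 and 4.25, and Hamp, the gene of the iron hormone hepcidin, had an NFKO ratio of 5.03, while all 42 of its UMIs in WT L cells lay in 1 cell. Nts-led NFKO cells came close to the NFKO L cells in both, with 57.4 against 81.3 CPM of Drd4 and 56.6 against 68.0 CPM of Hamp. Tmsb15b2, Rnf130, Cyp4b1, Map2 and Dmbt1 had ratios between 2.01 and 3.48. Dmbt1 was also high in non-endocrine barcodes (367 and 276 CPM), and without the cells in doubt its NFKO ratio was 1.68. All 5 tuft cell markers tested were lower.

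**Figure D3:**
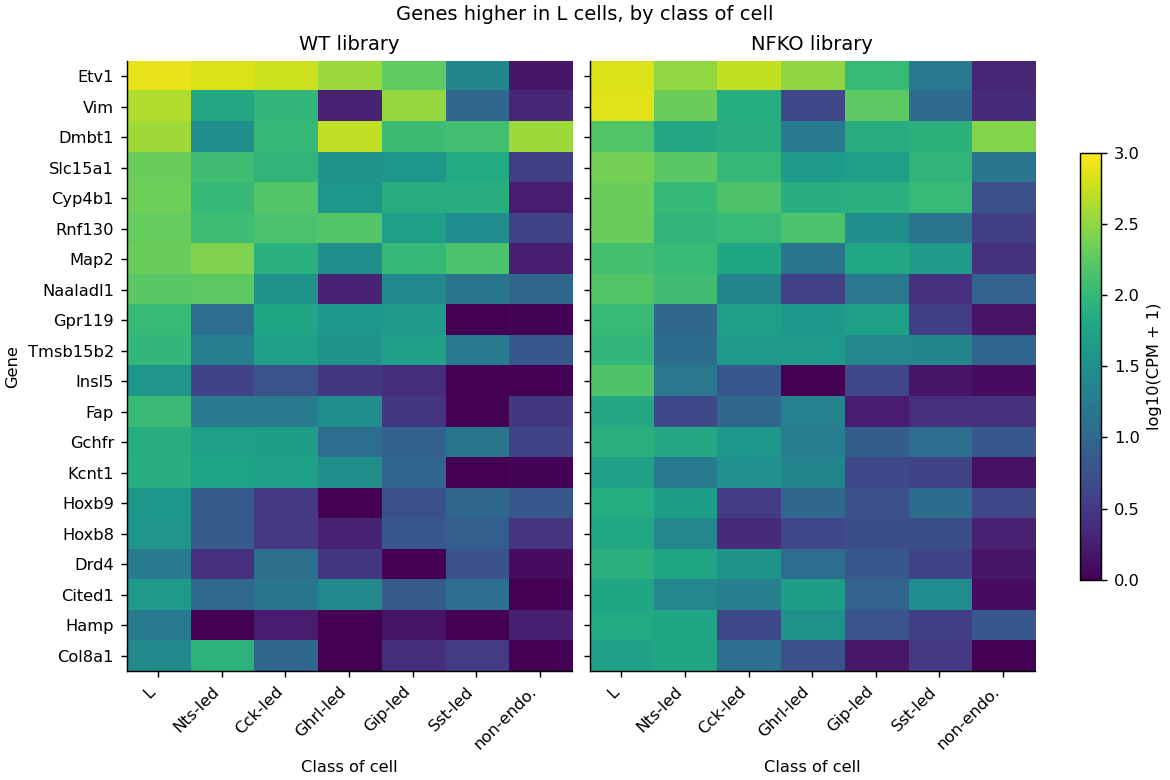
Level, as log10 of CPM + 1, of the 20 named genes that were higher in L cells (rows) in L cells, cells led by 5 other hormones and non-endocrine barcodes (columns), in the WT (left) and NFKO (right) libraries. Fap and Insl5 were highest in L cells in both libraries, while Col8a1 was higher in Nts-led than in L cells and Etv1 was spread over several classes.

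Pyy-led and Gcg-led cells differed beyond their hormones. Of 6820 genes tested, 113 (1.66%) were higher in Pyy-led cells by 1.5-fold or more in both libraries and 230 (3.37%) lower, while the median gene had a log2 ratio of -0.18 in WT and -0.36 in NFKO. Without the cells in doubt 126 were higher and 285 lower, with equal weight per cell 771 were lower, and with a minimum of 20 UMIs 171 were higher. Only 33 WT cells were led by Pyy, with 436336 UMIs, so low counts there are imprecise.

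Drd4 gave 1 UMI in 115 Gcg-led WT cells and 40 in 33 Pyy-led cells, and in NFKO 4 UMIs in 95 and 247 in 78 cells. It was seen in 30.3% and 37.2% of Pyy-led cells and in 0.870% and 4.21% of Gcg-led cells, and the ratios of the levels were 188 (31.9 to 7610) and 73.1 (28.2 to 270.4). Nt5e, which makes adenosine from AMP at the cell surface, was seen in 42.4% and 62.8% of Pyy-led cells against 5.22% and 10.5%, with ratios of 27.5 and 13.7. Rflna gave ratios of 26.6 and 10.8, and 18.3 in NFKO without the cells in doubt. Hamp had 0 UMIs in all 210 Gcg-led cells and 210 UMIs in 28 Pyy-led NFKO cells, where it was at least 82.9-fold higher, taking 3 counts over the Gcg-led group as the floor. In WT all 42 of its UMIs lay in 1 Pyy-led cell. Tph1, the enzyme of serotonin synthesis, was likewise uneven, with 36 of its 39 WT UMIs in 1 Pyy-led cell and 399 UMIs in 13 Pyy-led NFKO cells. The highest of those NFKO cells held 143, 98, 84 and 62 UMIs. Tph1 was seen in 16.7% of Pyy-led and 11.6% of Gcg-led NFKO cells. Apoa1, an apolipoprotein gene, gave ratios of 43.9 (13.6 to 226) and 27.1, and 8.99 in NFKO without the cells in doubt. Apoc2, also an apolipoprotein gene, gave 9.40 (1.35 to 104) and 9.67, and 6.07 in NFKO without those cells, and Gsdma 9.40 (2.01 to 58.1) and 45.8 (15.3 to 225). Mal was at least 18.8-fold higher in WT and 11.8-fold higher in NFKO. These WT ratios rest on 28, 4, 6 and 12 UMIs in Pyy-led cells.

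The 10 named genes on the Gcg side had varied functions. Insl5 gave 90 UMIs in Gcg-led and 0 in Pyy-led WT cells, at least 6.38-fold lower, and 431 and 28 in NFKO, a ratio of 0.0769. Onecut3, a homeodomain factor, gave 184 and 0 UMIs in WT and 172 and 12 in NFKO, and was seen in 24.3% and 24.2% of Gcg-led cells. Mboat4, the acyltransferase that activates ghrelin, had ratios of 0.267 and 0.121, and Pfkfb3, a regulator of glycolysis, 0.179 and 0.149. Dlc1 had ratios of 0.245 and 0.0893, the phosphoinositide phosphatase gene Ocrl 0.261 and 0.204, the protease inhibitor gene A2ml1 0.0879 (0.0105 to 0.325) and 0.0592, Cd177 0.293 and 0.107, Ecd 0.196 (0.0395 to 0.596) and 0.306, and the RNA sensor gene Ifih1 0.316 and 0.277. Their intervals lay below 1 in both libraries, as the choice of the genes required. Without the cells in doubt the NFKO ratios of Insl5 and Cd177 were 0.0180 and 0.178.

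**Figure D4:**
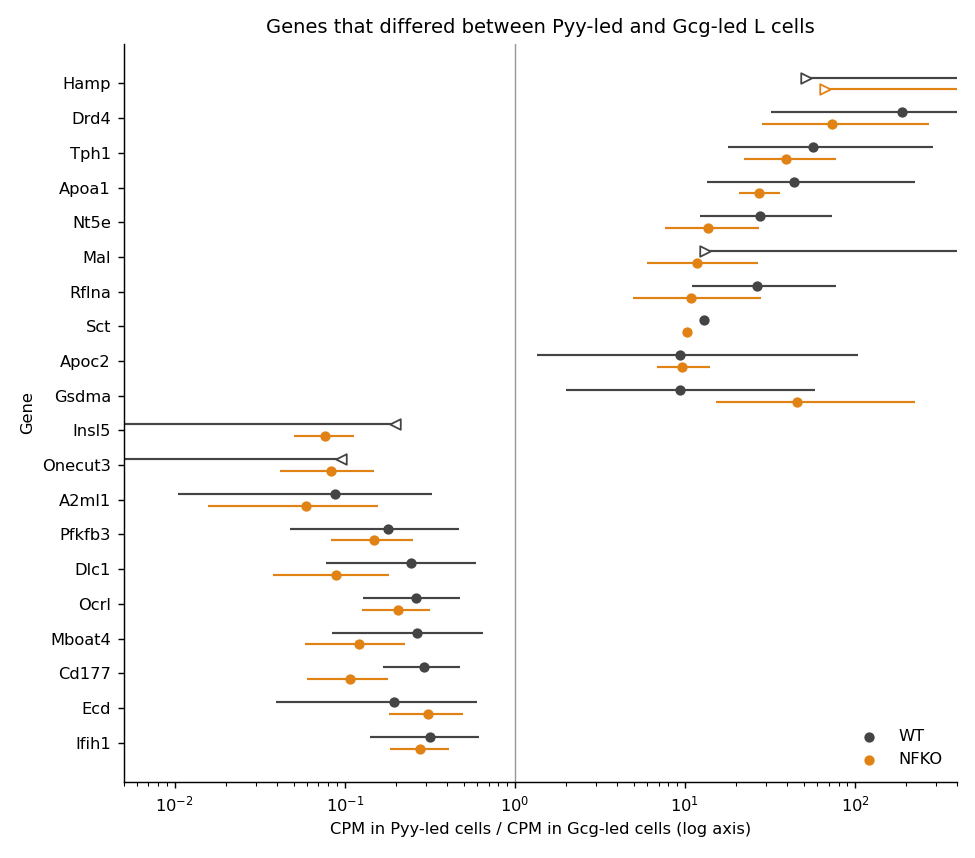
Ratio of the level in Pyy-led to that in Gcg-led L cells (log axis) for the 10 named genes higher and the 10 lower, with WT in gray, NFKO in orange and 95% counting intervals as lines. Open triangles stand at the nearer end of the interval where 1 of the groups had 0 UMIs; all 20 genes lie on the same side of 1 in both libraries, as the choice of the genes required.

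Members of some functional gene groups separated the leaders in both libraries, beside 1.66% higher and 3.37% lower over all genes. Of 19 exocytosis genes 2 were higher and 1 lower in Pyy-led cells in both libraries. Of 23 transcription factors tested, 0 were higher and 4 lower, among them Nkx2-2 (0.547 and 0.196), Egr3 (0.572 and 0.352) and Tox3 (0.659 and 0.291). Isl1, Pax6 and Etv1 had ratios of 0.820, 1.03 and 1.06 in WT and 0.354, 0.414 and 0.477 in NFKO. Syt7, a calcium sensor of granule release, was higher in Pyy-led cells (2.44 and 2.74), as were Ptprn, a granule membrane protein (4.11 and 2.32), and the granin gene Scg2 (1.51 and 1.65), whereas Cadps, which primes granules, was lower (0.508 and 0.553). The endocannabinoid receptor gene Cnr1 was higher (7.76 and 7.43) and Ffar2 lower (0.545 and 0.402). Goblet markers summed to 8592 CPM in Gcg-led and 1861 in Pyy-led WT cells, but to 11748 and 21811 in NFKO. Since 15 of the 16 repeated NFKO barcodes were Pyy-led, the NFKO values of Pyy-led cells hold those barcodes too.

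In the comparison of the genotypes over all L cells, 371 of 6820 genes (5.44%) were higher in NFKO by 1.5-fold or more, with an interval that left out 1, and 470 (6.89%) lower. The share of calls that were higher was thus 44.1%, and it was 63.7% after median-of-ratios scaling, which moved every log2 ratio up by 0.10 and gave 543 higher and 309 lower. Since Pyy-led cells were more frequent in NFKO, many results are given beside their values within Gcg-led and within Pyy-led cells. Within leaders 6.57% of 5538 genes were higher and 4.57% lower in Gcg-led cells, and 17.5% and 16% of 2617 genes in Pyy-led cells.

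From the list of hormones and peptides, 7 genes outside the rule were tested. Of these 4 were higher in NFKO and 2 lower, beside 5.44% and 6.89% of all genes. Higher were Sct, Insl5, Iapp and Tph1, an enzyme gene on that list, and lower were Tac1 and Gal. The cell with alpha cell markers held 125 of the 165 NFKO UMIs of Iapp, and without the cells in doubt its ratio was 2.58 (1.37 to 5.15), on 14 and 39 UMIs. Sct stood at 16872 CPM in WT and 47859 in NFKO (ratio 2.84), and the ratio was 1.66 within Gcg-led and 1.33 within Pyy-led cells, so the pooled ratio exceeded both. Insl5 was 4.11-fold higher (3.27 to 5.21), and 5.87-fold within Gcg-led cells, where 3 cells held most of the UMIs, as given above. Tph1 was 8.49-fold higher, from 39 to 411 UMIs, but 1 cell held 36 of the WT UMIs and the highest NFKO cells 143, 98, 84 and 62. Of the hormones in the rule, Nts stood at 2148 and 12230 CPM, with ratios of 2.92 and 2.57 within the leaders, and Ghrl at 6487 and 3790 CPM, with 0.685 and 0.958. Non-endocrine barcodes held 15.2 CPM of Nts in WT and 128 in NFKO. Ins1 and Ins2 had too few UMIs in L cells to be tested.

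Among 15 processing genes and granins 4 were higher and 2 lower, beside 5.44% and 6.89% of all genes. Without the cells in doubt 2 of 14 were higher and 1 lower. Scg5, a chaperone of prohormone convertase, was higher in both leaders (137 and 241 CPM, ratio 1.76, and 1.60 and 1.71 within leaders). Pcsk1n, which encodes a convertase inhibitor, gave 1.51, with 1.55 and 1.11 within leaders, and the convertase gene Furin 1.65, with 1.39 and 3.32. The fourth was Pcsk2, from the single cell with alpha cell markers. Scg2 was lower (1519 and 883 CPM, ratio 0.581, and 0.488 and 0.534 within leaders), as was Chgb (0.648, with 0.716 and 0.371). Chga had a pooled ratio of 1.41, with 1.79 in Gcg-led and 0.683 in Pyy-led cells. Pcsk1, the convertase that frees glucagon-like peptides, had a ratio of 0.947.

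Of 23 transcription factors 2 were higher and 1 lower, close to the 5.44% and 6.89% of all genes. Their median log2 ratio was -0.19 against -0.05 over all genes. Cdx2, the master regulator of intestinal identity, was higher (104.5 and 168 CPM, ratio 1.60), with 1.65 and 1.54 within leaders. Insm1, an endocrine differentiation factor, had a ratio of 1.51, with 1.97 in Gcg-led and 0.888 in Pyy-led cells, and Nfia was lower (0.617). Etv1 had 0.840 and Ffar1 1.02, again with opposite sides within leaders (1.12 and 0.500, and 1.25 and 0.625). Gpbar1 was the 1 nutrient receptor of 8 that was called, 2.18-fold higher, with 2.21 and 2.24 within leaders.

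Of 5 distal genes tested 4 were called higher, with a median log2 ratio of 0.80, beside 5.44% of all genes higher and 6.89% lower. Of the proximal list 1 of 3 was higher, Fabp1, and its 6 genes summed to 64.7 CPM in WT and 399.5 in NFKO, while the distal list summed to 290 and 586 CPM. The proximal sum was 70.2 CPM in WT and 92.0 in NFKO Gcg-led cells, and 39.0 and 764 CPM in Pyy-led cells. Fabp1 held 327 of the 399.5 CPM over all NFKO L cells. Of 2 proximal genes tested without the cells in doubt 0 were called. Among the distal genes Hoxb8 had 1.74 and Hoxb9 1.90, and each had 2.21 when Gcg-led and Pyy-led cells were given equal weight. Hoxb8 was seen in 10.8% of WT and 16.8% of NFKO L cells, and Hoxb9 in 10.1% and 13.3%. Fabp6, the ileal bile acid-binding protein gene, had 7.32, but 1 Pyy-led NFKO cell held 786 of its 809 UMIs, and within Gcg-led cells its ratio was 0.306. Without the cells in doubt the count of distal genes that were higher was again 4 of 5. In the other hormone-led cells Hoxb8 and Hoxb9 had ratios of 1.49 and 2.85, but Fabp6 had 0.210. In exocytosis Syt7 was 2.25-fold and Ptprn 1.64-fold higher, among 19 genes, though Ptprn had 0.891 within Pyy-led cells. Insr and Igf1r, receptors of insulin and insulin-like growth factor, were lower (0.500 and 0.550), the 2 calls among 6 receptors for hormones and neural signals. Of 12 genes listed as targets of FoxO factors 0 were higher and 3 lower, beside 5.44% and 6.89% of all genes. Their median log2 ratio was -0.41, and without the cells in doubt 2 were lower. The 3 were Irs2, an adaptor of insulin signaling (0.408, with 0.315 in Gcg-led and 2.06 in Pyy-led cells), Insr, and Pink1, a kinase of mitochondrial quality control (0.659).

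Stress genes were lower. Of 16 tested 0 were higher and 9 lower, beside 5.44% and 6.89% of all genes. The median log2 ratio was -0.75, and 8 were lower without the cells in doubt. The heat shock genes Hspa1b (273 and 8.74 CPM, ratio 0.0320), Hspa1a (405 and 18.5 CPM, 0.0456), Dnajb1 (480 and 103 CPM, 0.214) and Hsph1 (206 and 49.9 CPM, 0.242) were among them, with Hspa1b seen in 65.5% of WT and 8.67% of NFKO cells. Their ratios in the other hormone-led cells were 0.150, 0.136, 0.234 and 0.247. Jun had 0.479 in L cells, whereas Fos had 0.999. The rRNA-overlapping Gm42418 stood at 28211 CPM in WT and 8476 in NFKO (0.300), and Gm26917 had the same ratio, 0.300.

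Markers of other epithelial cells were higher, on few cells. Of 7 goblet markers 6 were higher in NFKO, beside 5.44% of all genes, with a median log2 ratio of 1.40. Without the cells in doubt 3 were higher and the median was 0.26. Zg16 had 10.8 with all cells and 2.76 without them, and Clca1 12.3 and 1.98, and 2 cells held at least 50% of the NFKO UMIs of each. Of 6 enterocyte markers 4 were higher, and 1 of 4 without the cells in doubt, with Fabp1 at 73.9 and 3.03 and Apoa4 at 59.0 and 6.02. Of 7 Paneth markers 2 were higher. The other named genes that were higher were Apoc2 (44.3 and 19.8 without those cells), Apoa1 (34.8 and 10.8), Mptx1 (35.0), Reg4 (18.8 and 21.2), Lgals3 (11.3 and 6.77), Gpx3 (9.50 and 10.3) and Ambp (9.33 and 10.6), of which Reg4, a secreted lectin of goblet and enteroendocrine cells, held 611, 449 and 394 of its 1980 UMIs in 3 cells. Gm10260 had 0 UMIs in WT and 207 in 41.0% of NFKO cells, at least 55.6-fold higher, and 64.8-fold in the other hormone-led cells. Among the named lower genes, Areg (0.167), Cd74 (0.177), Tac1 (0.199), Clca3b (0.236), Olfm4 (0.273) and Pigr (0.295) stood beside the heat shock genes. At least 50% of the WT UMIs lay in 1 cell for Tac1, in 2 cells for Cd74 and Olfm4, and in 3 for Clca3b. The direction turned for 4 of them, with ratios of 1.07 in Gcg-led cells and 1.74 without the top 5 cells for Tac1, and of 1.59, 1.10 and 55.2 in Pyy-led cells for Cd74, Clca3b and Olfm4. Areg had 0.0941 and Cd74 0.109 without the cells in doubt. The part of such cells in the genotype differences was not tested.

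**Figure D5:**
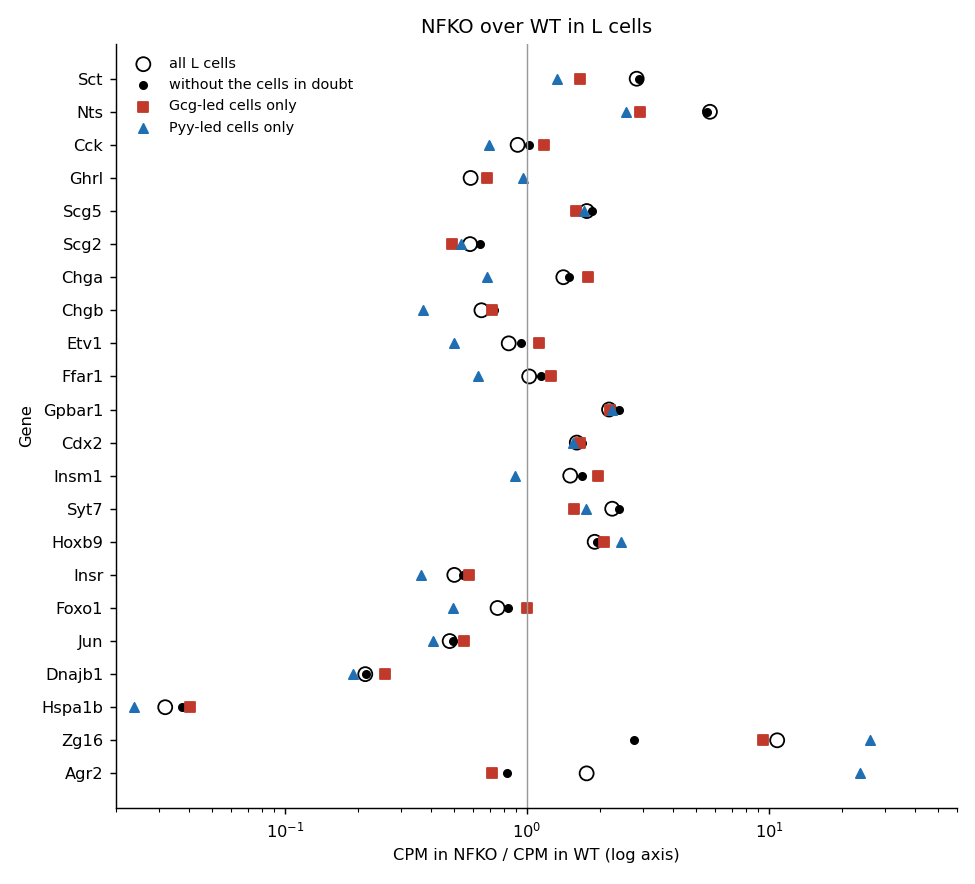
Ratio of NFKO to WT (log axis) of 22 genes in all L cells (open circles), without the cells in doubt (black points), within Gcg-led cells (red squares) and within Pyy-led cells (blue triangles). Hspa1b, Dnajb1 and Jun lay below 1 and Scg5, Cdx2, Gpbar1 and Syt7 above 1 in all 4 sets, whereas Chga, Etv1, Ffar1 and Insm1 changed side between the leaders.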

How the data were processed

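The authors deposited, for each of the 2 libraries, a matrix of counts of UMIs per gene and barcode, which per the labels came from Cell Ranger 5.0.1 on mm10 and lists 32285 genes. The values were whole counts with no normalization. Barcodes were kept and assigned as stated in the report, with ties between Gcg and Pyy given to Gcg, and no clustering was used. Levels were UMIs summed over the cells of a class and library, as CPM of all their UMIs, with exact Poisson intervals. Intervals were at 95%, by Clopper and Pearson for shares and from the binomial split of the summed UMIs for ratios. Genes were tested with at least 100 UMIs over the groups compared. A gene was called when its ratio was at least 1.5 (2 for L against other hormone-led cells) and its interval left out 1. These calls compare libraries, not genotypes, and carry no p-value.

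Named genes needed 50 CPM and a UMI in 10% of cells. They were the 12 highest and 12 lowest ratios of NFKO to WT, the 20 with the largest smaller ratio of L to other hormone-led cells, and the 10 each way between leaders, without mitochondrial genes, Xist, Y-linked genes, Neurog3 and the 7 hormones of the rule. Members of the gene lists were named besides. The cells, lists and comparisons were chosen with earlier results of these data known. Of the listed gene symbols 1 was not used here, and some genes counted in the lists are not reported here by name.

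Shares of cells were also taken after thinning each cell to 2000 UMIs. Scrublet (scanpy 1.11.5) marked 2 WT and 0 NFKO barcodes by its automatic limit, which therefore had not worked, so no doublet was removed in the main values. An alternative removed the highest scores at 0.8% per 1000 barcodes, 126 WT and 340 NFKO barcodes with 13 and 22 L cells. Cells were typed as male by a UMI of Ddx3y, Eif2s3y, Kdm5d or Uty without Xist, and as female by Xist without these. Pairs of L cell barcodes of a library were compared by a chi-square test with at least 30 degrees of freedom. Gene positions came from GENCODE on GRCm38 (68 of 68 identifiers matched) and promoters from RefSeq on GRCm38.p6. Analyses used Python 3.11.15, numpy 2.4.6, scipy 1.17.1 and pandas 2.3.3, and the interval code was tested on simulated data.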

Additional observations from a re-analysis of the deposited data

Results flagged for a closer look

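For 10 of the 118 listed or named genes with enough UMIs in both leaders, the ratio of NFKO to WT was called in opposite directions within Gcg-led and within Pyy-led cells (8.47%, against 40 of 2563 genes, or 1.56%, over all genes tested). There were 21 of 1998 such genes without the cells in doubt. The difference between the leaders was not tested, since each genotype has 1 library. Of the 10 genes, all but Fev and Vim are known from goblet, Paneth or crypt cells and were lower in Gcg-led and higher in Pyy-led NFKO cells. The defensin gene Defa24 had ratios of 0.417 and 4.49, the mucosal scavenger receptor gene Dmbt1 0.277 and 11.9, and the lectin gene Itln1 0.365 and 2.27. The matrix protease gene Mmp7 had 0.508 and 11.2, the stem cell marker Olfm4 0.0581 and 55.2 (9.78 to 2193), and the goblet peptide gene Spink4 0.479 and 10.3. The goblet cell factor Klf4 had 0.607 and 2.72. The chloride cotransporter gene Slc12a2, on the list of stem and cycling markers, had 0.241 and 9.97 (3.31 to 49.2). The other pair went the opposite way. Fev, a factor of serotonin cells, had 1.67 and 0.485, and Vim 2.55 and 0.640. Goblet markers summed to 8592 CPM in Gcg-led and 1861 in Pyy-led WT cells and to 11748 and 21811 in NFKO, and Paneth markers to 1155 and 4599 CPM in Pyy-led WT and NFKO cells. With the doubtful cells left out the ratios were 1.05 and 1.41 for Defa24 and 0.688 and 1.10 for Itln1, which were then not called in either leader, and Vim had 2.65 and 0.762, not called in Pyy-led cells. Mmp7 (0.648 and 1.68) and Slc12a2 (0.170 and 8.04, 2.61 to 40.2) then had too few UMIs in Pyy-led cells to be tested. Opposite calls were left for Dmbt1 (0.191 and 7.14), Fev (1.75 and 0.609), Klf4 (0.465 and 2.78), Olfm4 (0.0122 and 76.8, on 1 WT UMI, 13.6 to 3049.6) and Spink4 (0.594 and 2.07).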

How the results depend on the processing

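No paired analysis was possible because each genotype had 1 library, and for the same reason no replicate could be left out. Of the alternatives, 6 were added after seeing the data: either leader alone, the other-lineage, repeated and alpha-marker cells left out, and these 3 exclusions together. Among male-typed cells, of which NFKO had 7 L cells, the ratio of L cell shares was 0.374 in place of 0.649 and that of Pyy-led shares 3.32 in place of 2.02. The ratio of Gcg levels (0.737) was 0.715 with mitochondrial UMIs limited to 10%, 0.703 with a leading hormone of 5%, 0.744 from 5000 UMIs, 0.687 with the highest Scrublet scores removed, 0.506 in male-typed cells, 0.745 with the 7 hormones out of the denominator, 0.792 with median-of-ratios factors, 0.677 with equal weight per cell and 0.695 without the top 5 cells. It was 0.830, 0.761 and 0.703 without other-lineage, repeated and alpha-marker cells, 0.812 without all 3 kinds, 1.16 in Gcg-led cells, where it turned, and 0.143 in Pyy-led cells. The ratio of Pyy levels (1.74) was, in the same order, 1.78, 1.59, not moved, 1.55, 2.77, not moved, 1.87, 1.49 and 1.83, then 1.79, 1.78, not moved and 1.84, with 1.21 in Gcg-led and 0.919, a turn, in Pyy-led cells. Genes higher in NFKO numbered 630 in place of 371 with a minimum of 20 UMIs, and genes lower 949, 292 in male-typed cells, 309 with median-of-ratios factors and 253 in Gcg-led cells in place of 470. Genes higher in Pyy-led cells numbered 171 in place of 113 with 20 UMIs, and genes lower 771 in place of 230 with equal weight per cell. The 69 genes higher in L cells stayed within 1.5 times. Among named genes 6 values turned: Ambp at 0 in male-typed cells, Tac1 at 1.07 in Gcg-led cells and 1.74 without its top 5 cells, and Cd74, Clca3b and Olfm4 at 1.59, 1.10 and 55.2 in Pyy-led cells, while 125 other values of named genes moved and 205 did not. The cause was not tested. The 436336 UMIs of Pyy-led WT cells put the limit of 3 counts at 6.88 CPM, against 1.46 CPM in Gcg-led WT cells.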

Other observations

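Genes that lie next to the hormone genes were compared within 200000 bases, after values had been seen, which gave 31 neighbors with at least 100 UMIs in L cells. Fap lies 17292 bases from Gcg on the same strand. It had 235 UMIs in 70 of 115 Gcg-led and 36 UMIs in 7 of 33 Pyy-led WT cells, and 196 UMIs in 62 of 95 Gcg-led but 0 UMIs in 78 Pyy-led NFKO cells. Ifih1, 112147 bases from Gcg, had ratios of Pyy-led to Gcg-led of 0.316 and 0.277, and Gca, 180634 bases away, 0.532 and 0.277. Dpp4, the peptidase that inactivates glucagon-like peptide, lies 62298 bases away on the other side and had 1.05 and 0.650. Drd4 lies 12872 bases from Sct and had ratios of 188 and 73.1, whereas Cdhr5, 1543 bases from Sct, had 1.38 and 0.752 and Irf7, 11848 bases away, 1.79 and 1.08.

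Pancreatic polypeptide (Ppy), a paralog of peptide YY, lies 5356 bases from Pyy. It had 0 UMIs in the 148 WT L cells and 1 UMI in the 489 other hormone-led WT cells. In NFKO it had 952 UMIs in 14 L cells, of which 11 were led by Pyy and held 944. The highest cells held 655, 178, 53 and 46 UMIs. Cells led by other hormones held 394 UMIs in 16 of 1141 NFKO cells, 266 of them in 1 Gip-led cell. Since a few barcodes held nearly all of it, no difference between the genotypes can be read from it.

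Insl5-positive L cells were Gcg-led in 17 of 17 WT and 22 of 28 NFKO cells. Hoxb9 was seen in 29.4% and 28.6% of them, against 7.63% and 10.3% of Insl5-negative L cells. Pyy led in 33.3% and 47.8% of the Hoxb9-positive cells.

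Markers of other cell types gave these summed levels in WT and NFKO L cells. Over all genes 5.44% were higher and 6.89% lower in NFKO. Tuft markers reached 3.62 and 6.47 CPM, with 3 and 2 of 7 genes at 0, and 0 had enough UMIs to be tested between genotypes. Stem and cycling markers reached 557 and 235 CPM, with 4 of 5 genes lower in NFKO, but 667 and 127 CPM in Gcg-led and 39.0 and 364 CPM in Pyy-led cells. Immune markers reached 142 and 24.9 CPM, with 5 and 6 of 7 genes at 0. Pancreatic alpha and acinar markers reached 181 and 434 CPM, with 8 and 5 of 11 genes at 0. Enterochromaffin markers reached 6397 and 4393 CPM, with 1 of 5 genes higher and 2 lower in NFKO. Progenitor markers reached 160 and 129 CPM, with 1 of 2 genes lower.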
